A study of Mus musculus with 15 samples.

Results

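The 10 genes described here, Ttr, Kl, Folr1, Clic6, Aqp1, Otx2, Kcne2, Sostdc1, Slc4a5 and Enpp2, are markers of choroid plexus epithelium and were chosen by name from a table of 24420 gene symbols. All 10 passed the filter on low counts, as did 16808 genes in all. The study measured RNA of dissected mouse cerebellum in 3 groups of 5 libraries. The wild type group (WT) and the group with the allele Atxn1[82Q] (82Q) were of strain FVB/nJ and 9 weeks old. The third group (82Q_M120A) carried Atxn1[82Q] together with CalphaLoxM120A, an altered catalytic subunit of protein kinase A, was 8 weeks old and had a background mixed from FVB/nJ and C57BL/6J. Both groups other than WT therefore carry Atxn1[82Q], and the kinase allele, strain and age cannot be told apart in any comparison with 82Q_M120A. The study's design text calls the Atxn1[82Q] mice a knockin. The sources used here do not give the promoter or cell type that drives either allele. The libraries are called replicates and nothing more is said of their origin, so p-values measure the spread between these libraries. A library is named by its group and by the order of the columns, so WT-4 is column 4 among those of WT.

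The choroid plexus is a fold of epithelium over a vascular core that hangs into the brain's ventricles and secretes cerebrospinal fluid. The fourth ventricle lies directly under the cerebellum, and its choroid plexus is attached close to where a cerebellum is dissected free. The epithelium moves ions, bicarbonate and water from blood to fluid, carries thyroid hormone, retinol and folate across, and releases signalling proteins. Ttr encodes transthyretin, a carrier of thyroid hormone that this epithelium makes in large amounts and that neurons and glia of the cerebellum hardly make. Several of the other genes are also used elsewhere in the brain, Enpp2 by oligodendrocytes among other cells.

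Promoter windows are shown for 5 of the genes, which run from one that followed Ttr closely to the one that followed it least. Each window runs from 250 bases before to 50 bases after a transcript start in RefSeq, on GRCm38.p6, the assembly known as mm10, and is written 5′ to 3′ on the strand of the gene. Capitals mark TAATCC, a core recognised by homeodomain proteins of the OTX type, or TATAAA, the TATA box, each searched on both strands (as GGATTA and TTTATA in reverse). None was looked up for Ttr. Of the other 9 genes 5 matched, with 9 windows in all, and the one shown is the first listed that holds TAATCC or else the first listed.
Kl, chr5:150952357-150952656, plus strand: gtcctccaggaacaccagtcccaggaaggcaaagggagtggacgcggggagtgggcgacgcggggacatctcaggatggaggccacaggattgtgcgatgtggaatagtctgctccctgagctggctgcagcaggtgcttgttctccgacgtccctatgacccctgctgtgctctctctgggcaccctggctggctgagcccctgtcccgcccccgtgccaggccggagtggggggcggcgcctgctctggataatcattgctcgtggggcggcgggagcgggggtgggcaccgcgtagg
Aqp1, chr6:55336049-55336348, plus strand: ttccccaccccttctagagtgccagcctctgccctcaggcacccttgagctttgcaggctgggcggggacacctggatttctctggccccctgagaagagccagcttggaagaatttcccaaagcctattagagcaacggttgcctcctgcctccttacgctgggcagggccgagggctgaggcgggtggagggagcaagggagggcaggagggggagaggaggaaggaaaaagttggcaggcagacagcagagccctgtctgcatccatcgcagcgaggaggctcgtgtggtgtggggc
Kcne2, chr16:92292139-92292438, plus strand: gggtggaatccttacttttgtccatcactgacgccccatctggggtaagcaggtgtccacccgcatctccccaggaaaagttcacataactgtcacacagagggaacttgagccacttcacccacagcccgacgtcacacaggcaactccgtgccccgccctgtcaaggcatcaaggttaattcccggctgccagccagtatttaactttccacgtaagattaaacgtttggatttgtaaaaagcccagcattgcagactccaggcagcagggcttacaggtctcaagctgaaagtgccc
Slc4a5, chr6:83237125-83237424, plus strand: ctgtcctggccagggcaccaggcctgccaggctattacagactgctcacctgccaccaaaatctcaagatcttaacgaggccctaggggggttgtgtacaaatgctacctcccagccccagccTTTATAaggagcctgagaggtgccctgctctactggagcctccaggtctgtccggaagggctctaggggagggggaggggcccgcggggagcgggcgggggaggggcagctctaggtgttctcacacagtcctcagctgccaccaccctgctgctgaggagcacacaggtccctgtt
Otx2, chr14:48665060-48665359, minus strand: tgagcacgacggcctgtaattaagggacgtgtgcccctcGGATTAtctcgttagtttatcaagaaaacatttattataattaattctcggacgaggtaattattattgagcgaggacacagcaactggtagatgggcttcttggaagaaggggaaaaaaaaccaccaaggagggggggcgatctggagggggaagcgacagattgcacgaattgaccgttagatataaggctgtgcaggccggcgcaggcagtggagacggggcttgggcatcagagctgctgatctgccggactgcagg
TAATCC was in 1 of the 9 windows, the one shown for Otx2, and in 7.06% of 32851 windows of all genes. TATAAA was in 2 of the 9, the window shown for Slc4a5 and another window of Otx2, and in 13.6% of all windows. A match is a string of letters and not a binding site. The windows of Kl, Aqp1 and Kcne2 that are shown hold neither string, and nothing about a factor follows from that.

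Total counts ran from 38.3 M to 99.4 M per library (M, mega). Libraries of a group differed by more than counting error, with a ratio of chi-square to its degrees of freedom between 6.84 and 69.0 in the 30 pairs. Values are given as CPM, counts per M counts of a library after TMM scaling, whose factors ran from 0.971 to 1.02. The mouse genes Atxn1 (46.4 to 62.2 CPM) and Prkaca (138 to 173 CPM) were present in every library, but gene counts do not separate alleles and so do not check the genotype labels. The cerebellar origin was checked by 12 granule cell markers, whose summed level was 6704 to 8163 CPM, and 12 Purkinje cell markers, at 3922 to 12034 CPM. The Purkinje cell sum was 10514 CPM or more in WT and 5237 or less in the other groups. All of these markers were tested in every comparison.

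Ttr (chr18:20665280-20674321) varied widely between the libraries of every group. In the WT libraries in order it stood at 1509.9, 2218, 2412, 18.3 and 2099.7 CPM. In 82Q it stood at 24.2, 2602, 269, 66.2 and 1936 CPM, and in 82Q_M120A at 1920.3, 8.30, 9.32, 20.7 and 15.8 CPM. Thus 4 of 5 WT libraries, 2 of 5 82Q libraries and 1 of 5 82Q_M120A libraries were high, 82Q-3 lay between, and the groups overlapped over most of their range. The values spanned a factor of 314 over the 15 libraries. The WT libraries averaged 1651 ± 973 CPM, those of 82Q 979 ± 1204 and those of 82Q_M120A 395 ± 853 (SD, n = 5), with SDs that exceed the mean in both 82Q groups. In these bulk samples fewer choroid plexus cells and less RNA per cell cannot be told apart. Ttr alone took 0.264% of all counts in 82Q-2 and 0.000833% in 82Q_M120A-2.

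**Figure D1:**
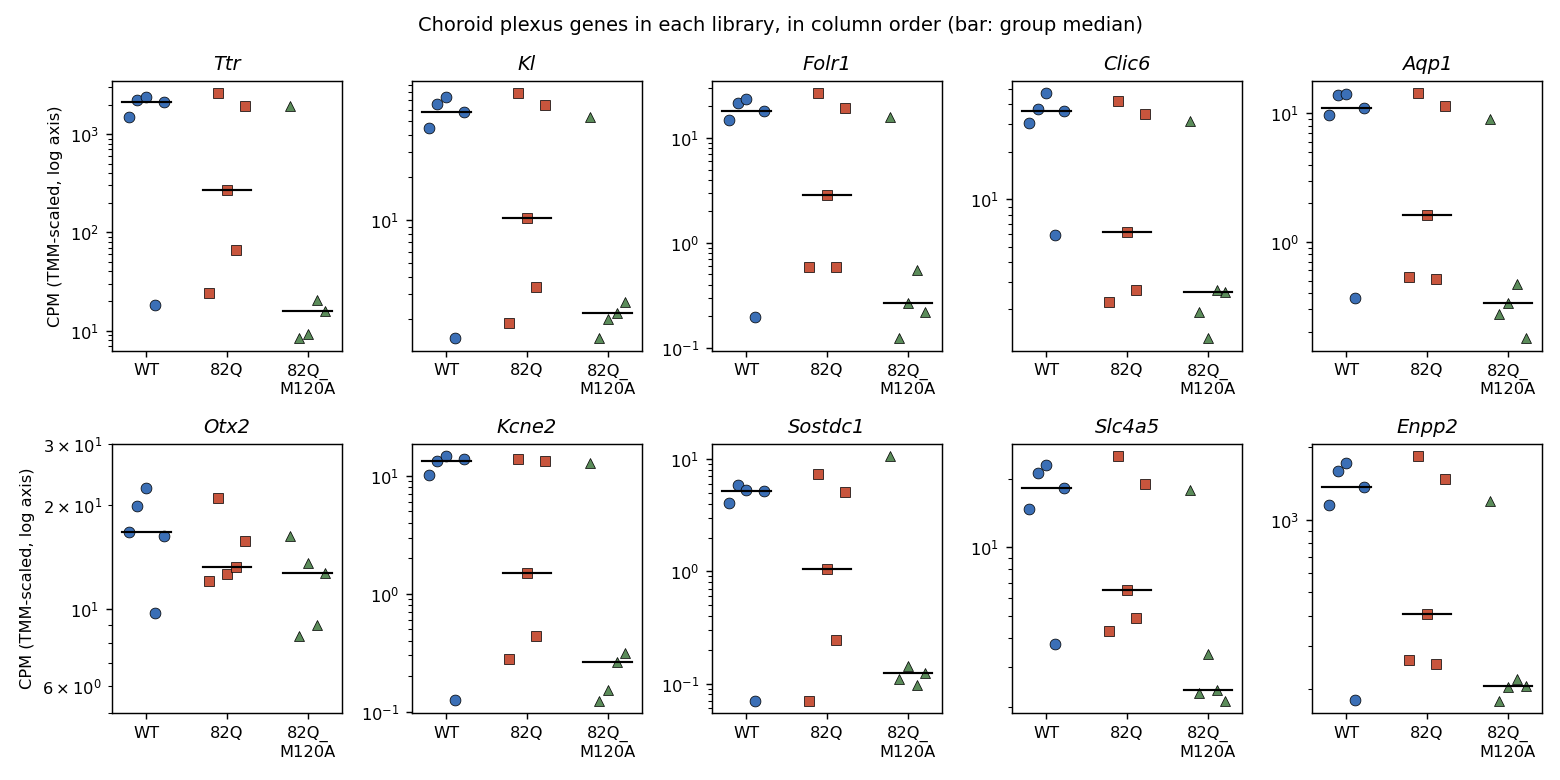
CPM of each of the 10 genes on a log axis, 1 point per library in column order within WT (circles), 82Q (squares) and 82Q_M120A (triangles), with the group median as a bar. WT-4 lies far below the other WT libraries and 82Q_M120A-1 far above the other 82Q_M120A libraries for most genes, and Otx2 has the narrowest range.

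The transport genes showed the same division of libraries. Kcne2 (chr16:92292389-92298129), a potassium channel subunit of the apical membrane, stood at 10.2, 13.5, 14.8, 0.125 and 13.9 CPM in WT. In 82Q it was 0.280, 14.0, 1.49, 0.435 and 13.4 CPM, and in 82Q_M120A 12.8, 0.122, 0.153, 0.262 and 0.312. Its lowest libraries, WT-4 and 82Q_M120A-2, held 9 counts each, so these levels are known only roughly. Aqp1 (chr6:55336432-55348555), the water channel of the epithelium, ranged from 0.362 CPM in WT-4 to 14.3 in WT-3, from 0.517 to 14.35 in 82Q, and from 0.177 to 9.01 in 82Q_M120A. Slc4a5 (chr6:83219828-83304945), a sodium bicarbonate cotransporter, ranged from 3.75 to 23.1, from 4.29 to 25.2 and from 2.11 to 17.9 CPM in the same groups. The range over all libraries was a factor of 11.9 for Slc4a5, 121 for Kcne2 and 81.1 for Aqp1.

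Clic6 (chr16:92485736-92541243), an intracellular chloride channel protein, stood at 30.7, 37.5, 47.1, 5.92 and 36.3 CPM in WT, between 2.21 and 41.9 in 82Q and between 1.31 and 31.6 in 82Q_M120A. WT-4 was again the lowest WT library, but its Clic6 level was above the 4 low 82Q_M120A libraries, which lay between 1.31 and 2.66 CPM. The annotated gene 2410124H12Rik overlaps Clic6 on the same strand. It was highest in WT-4, at 2.77 CPM, and the other groups stayed at or below 0.306 (82Q) and 1.002 (82Q_M120A). The sources used here do not say how reads of the overlap were assigned, and its part in the Clic6 level was not tested.

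The receptor and cofactor genes divided the libraries in the same places. Folr1 (chr7:101858331-101870788), the folate receptor that carries folate into cerebrospinal fluid, stood at 14.9, 21.7, 23.3, 0.195 and 18.1 CPM in WT. In 82Q it was 0.588, 26.7, 2.85, 0.587 and 19.4 CPM, and in 82Q_M120A 15.7, 0.122, 0.266, 0.551 and 0.219. Folr1 overlaps Anapc15 on the opposite strand, and whether counting used strand is not known from the labels. Anapc15 stood at 9.30 to 10.7 CPM in all 15 libraries and did not follow the division, and the lowest Folr1 library held 9 counts. Kl (chr5:150952607-150993817) encodes klotho, a coreceptor for FGF23 that is shed into cerebrospinal fluid. It stood at 44.7, 65.2, 73.8, 1.49 and 57.7 CPM in WT, at 1.89, 78.2, 10.4, 3.37 and 64.2 in 82Q, and at 53.5, 1.47, 2.02, 2.22 and 2.66 in 82Q_M120A.

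Among the secreted proteins, Sostdc1 (chr12:36314139-36318452), an inhibitor of BMP and Wnt signalling, had the lowest median level per kilobase in WT. It stood at 4.09, 5.88, 5.34, 0.0697 and 5.24 CPM in WT. In 82Q it was 0.0701, 7.33, 1.05, 0.247 and 5.07 CPM, and in 82Q_M120A 10.6, 0.109, 0.143, 0.0964 and 0.125. The highest library for Sostdc1 was therefore 82Q_M120A-1, which was not the highest for any of the other 9 genes over the 15 libraries. Enpp2 (chr15:54838901-54952892) encodes autotaxin, the enzyme that makes lysophosphatidic acid. It stood at 1149.6, 1587, 1708, 180 and 1363 CPM in WT, at 262, 1831, 405, 252 and 1477 in 82Q, and at 1198, 177, 202, 219 and 204 in 82Q_M120A. Enpp2 thus kept at least 177 CPM in every library.

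Otx2 (chr14:48657677-48673819), a homeodomain transcription factor that the choroid plexus needs to form and keep its identity, varied least. It stood at 16.7, 19.9, 22.3, 9.74 and 16.3 CPM in WT, at 12.05, 20.9, 12.6, 13.2 and 15.7 in 82Q, and at 16.2, 8.34, 13.6, 9.00 and 12.7 in 82Q_M120A. The whole range was a factor of 2.67. Otx2 overlaps its antisense gene Otx2os1, which did not exceed 0.455 CPM in any library. The annotation also places Gm49154 over Otx2 on the same strand and Gm26684 over Enpp2 on the opposite strand. These predicted genes were not analysed here, and their part in the lowest levels of Otx2 and Enpp2 was not tested.

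Per kilobase of annotated exon, the median level in WT was 1770.4 CPM for Ttr, 236 for Enpp2, 9.28 for Clic6, 7.89 for Folr1 and 7.63 for Kcne2. It was 6.19 for Kl, 4.23 for Aqp1, 3.95 for Otx2, 3.14 for Slc4a5 and 2.94 for Sostdc1. Ttr and Enpp2 stood far above the rest, and the ranges of the other 8 overlapped in WT. In 82Q_M120A the median per kilobase was 35.3 for Enpp2, 13.3 for Ttr and 3.02 for Otx2, while Clic6, at 0.66, and the other 6 were lower.

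Between libraries of 1 group the 10 genes rose and fell in the same libraries. WT-4 was the lowest WT library for all 10, 82Q-2 the highest 82Q library for all 10, and 82Q_M120A-1 the highest 82Q_M120A library for all 10. WT-3 was the highest WT library for 9, the exception being Sostdc1, which was highest in WT-2. In 82Q the lowest library was 82Q-1 for 7 genes and 82Q-4 for Folr1, Aqp1 and Enpp2. Within a group the standard deviation of log2 CPM was 3.10 for Ttr, rank 6 of 16808 tested genes from the top, and 2.74 for Folr1, 2.72 for Kcne2 and 2.69 for Sostdc1. It was 1.18 for Slc4a5 and 0.40 for Otx2, against a median of 0.0941 over all tested genes.

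**Figure D2:**
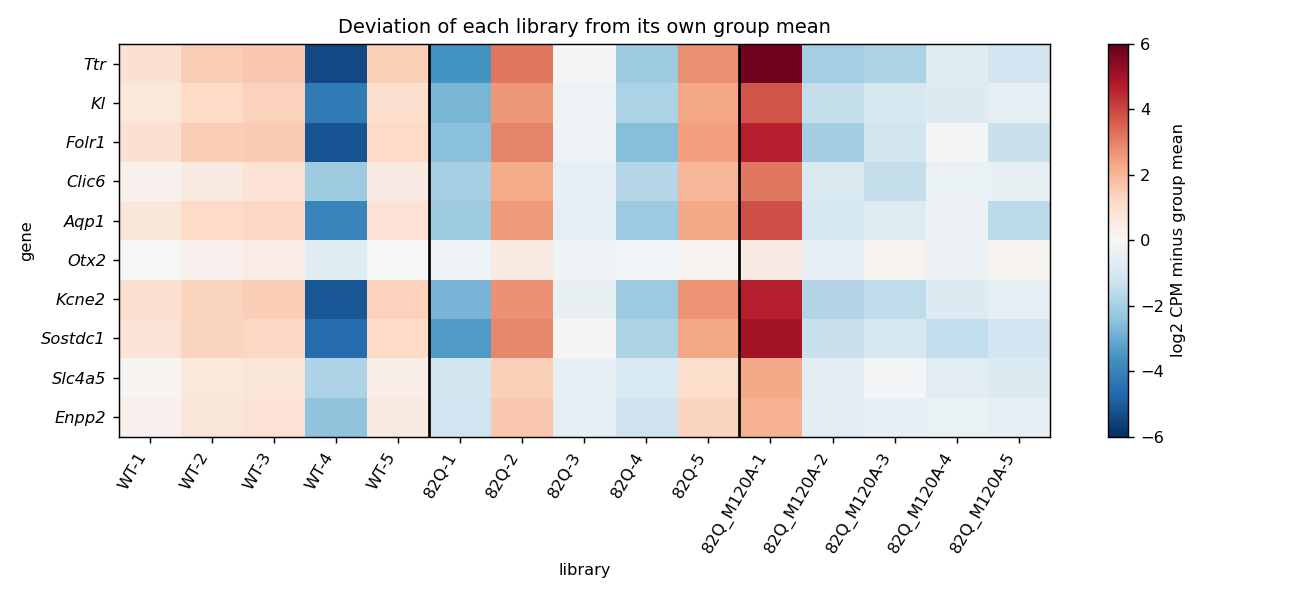
Log2 CPM of each of the 10 genes (rows) in each library (columns) minus the mean of the library's own group, red above and blue below, with black lines between the groups. The columns of WT-4, 82Q-1 and 82Q-4 are blue and those of 82Q-2, 82Q-5 and 82Q_M120A-1 red for nearly all genes, and the Otx2 row is pale throughout.

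The widest gap in Ttr, 2.49 on the log2 scale, lay between 82Q-3 and WT-1 and set 7 libraries above from 8 below. The next widest, 2.02, lay between 82Q-4 and 82Q-3, so the 8 libraries below are not uniform and ran from 8.30 to 269 CPM of Ttr. For each of the other 9 genes the 7 libraries all lay above the 8, without overlap, whereas 1.21% of the 16807 other tested genes did so and 0.0773% lay lower without overlap. The margin was a factor of 6.85 for Kcne2, 5.52 for Aqp1, 5.21 for Folr1, 4.94 for Clic6, 4.31 for Kl and 3.91 for Sostdc1. For Enpp2 it was 2.84, for Slc4a5 2.27 and for Otx2 1.16. The 7 libraries are not a group of the study, and no means or tests were made between the 7 and the 8.

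**Figure D3:**
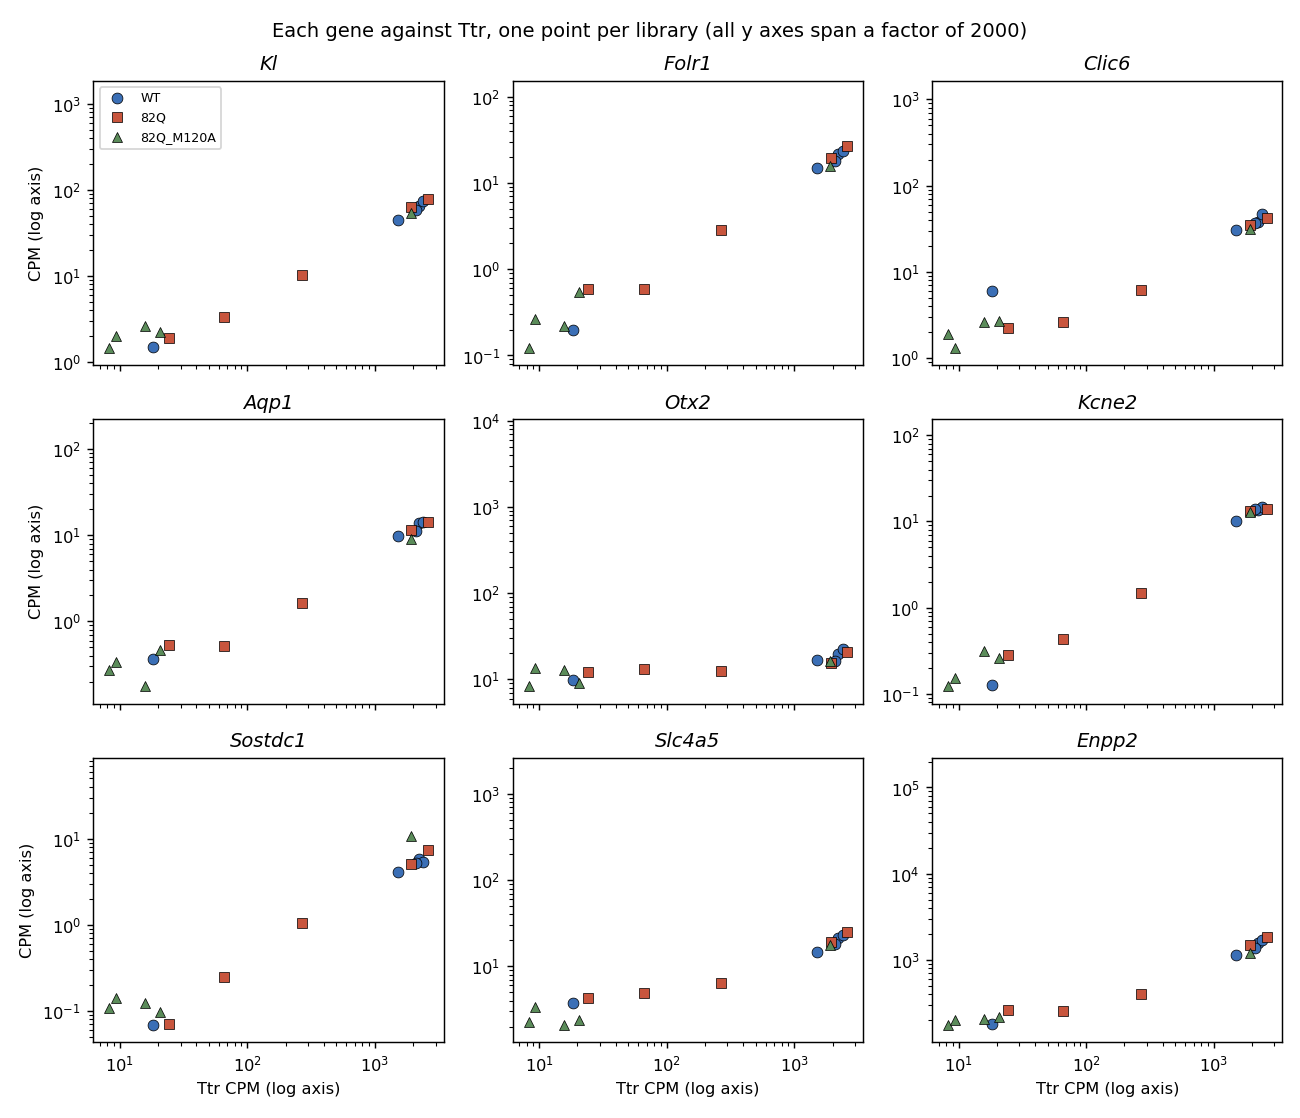
CPM of 9 genes against CPM of Ttr, both on log axes, 1 point per library, with WT as circles, 82Q as squares and 82Q_M120A as triangles and the same vertical span in each panel. Kcne2, Folr1 and Sostdc1 rise with Ttr over most of its range, Enpp2 and Slc4a5 level off at low Ttr, and Otx2 is nearly flat.

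Whether a gene moved with Ttr inside the groups was tested over the whole table with the slope of each gene on the log2 CPM of Ttr, centred on each group's mean, in the same fit as group. A slope of 1 stands for a gene that changes by the same factor as Ttr. All 9 other members were called (edgeR quasi-likelihood, Benjamini-Hochberg adjusted p under 0.05), against 2.99% of 16807 tested genes, or 2.31% with a rising and 0.684% with a falling slope. The slope was 0.89 ± 0.02 for Sostdc1 (approximate SE, adjusted p = 4.05e-14), 0.89 ± 0.02 for Kcne2 (8.03e-14), 0.88 ± 0.03 for Folr1 (4.8e-11), 0.74 ± 0.03 for Kl (3.78e-09) and 0.74 ± 0.03 for Aqp1 (1.09e-09). It was lower for Clic6, at 0.53 ± 0.04, Enpp2, at 0.41 ± 0.03, and Slc4a5, at 0.37 ± 0.03. Otx2 had a slope of 0.10 ± 0.02 (adjusted p = 0.0177).

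The slopes rest largely on the division into high and low libraries. Without WT-4 the Otx2 slope was 0.09 (adjusted p = 0.157), and it also missed the threshold without 82Q-2 (0.0567) or 82Q_M120A-1 (0.0599). Leaving out WT-4 or 82Q_M120A-1 took the number of genes called over the whole table from 503 to 246 or 324. The other 8 members remained called when any of the 15 libraries was left out. With a slope for each group in 1 fit, a test chosen after the data were seen, the slope of Kl was 0.79 ± 0.04 in WT, 0.83 ± 0.03 in 82Q and 0.64 ± 0.02 in 82Q_M120A. Equal slopes in the 3 groups were not rejected for Kl (adjusted p = 0.421) or for any other of the 9 members, and were rejected for 0.0416% of tested genes. Before adjustment the edgeR quasi-likelihood p was 0.000426 for Kl, 0.00125 for Clic6 and 0.0389 for Kcne2, so equal slopes are not shown. The Clic6 slope was 0.40 ± 0.05 in WT, 0.69 ± 0.04 in 82Q and 0.54 ± 0.03 in 82Q_M120A. The 82Q_M120A slopes rest on 82Q_M120A-1 against the other 4 libraries, and the WT slopes largely on WT-4 against the other 4 of WT.

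**Figure D4:**
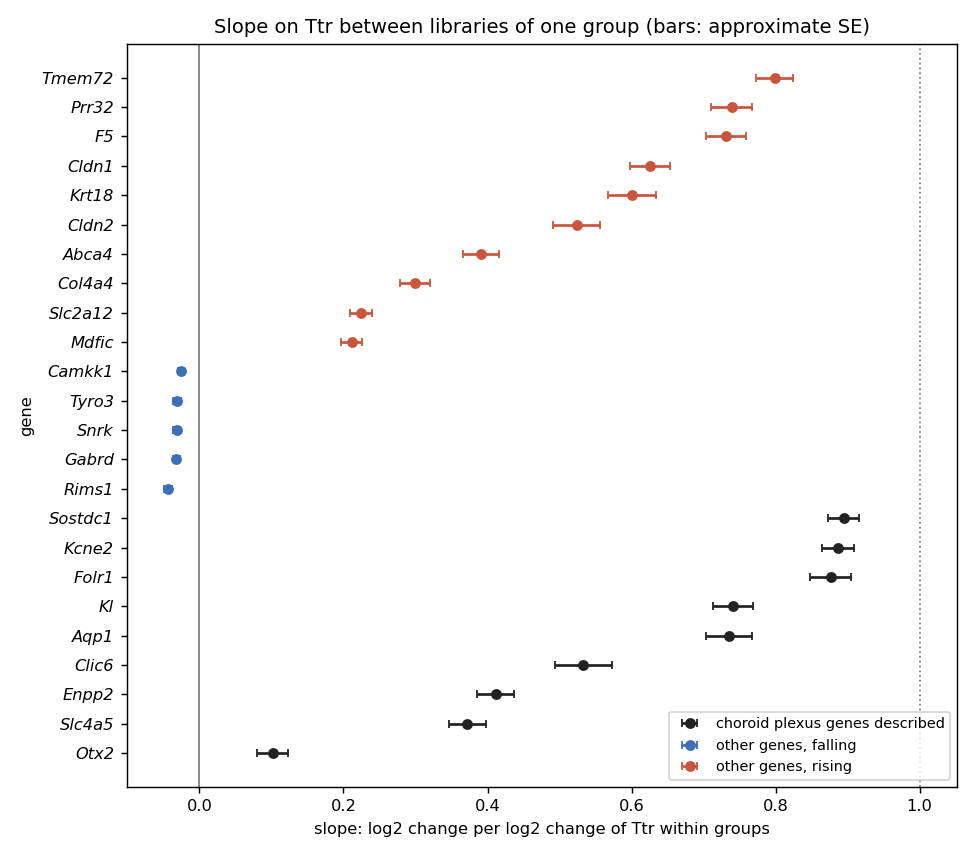
Slope of each gene on Ttr within groups with its approximate SE (horizontal axis, log2 change per log2 change of Ttr) for the 9 other choroid plexus genes in black, for 10 further rising genes in red and for 5 falling genes in blue. The black points run from 0.10 for Otx2 to 0.89 for Sostdc1, and the falling slopes lie between -0.04 and -0.03.

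Because the libraries fall into separate clusters, no correlation over all 15 is given. Inside the clusters Ttr and each other member were compared on log2 CPM, 18 relations in all, chosen after the data were seen, each with a two-sided exact permutation test adjusted over the 18. Among the 7 high libraries Slc4a5 followed Ttr with r = 0.97 and rho = 0.96 (exact permutation p = 0.000595 and 0.00278, adjusted 0.00859 and 0.01), and r was 0.90 after the 2 libraries of most extreme Ttr were left out. Kl had r = 0.95 and rho = 0.96 (exact permutation p = 0.00179 and 0.00278, adjusted 0.00859 and 0.01; r = 0.78 without the 2 libraries). Folr1, Clic6, Aqp1, Kcne2 and Enpp2 were also called, with r from 0.82 to 0.92. Otx2 (r = 0.74, rho = 0.71, exact permutation p = 0.0516 and 0.0881, adjusted 0.0619 and 0.106) and Sostdc1 (r = 0.34, rho = 0.43, exact permutation p = 0.444 and 0.354, adjusted 0.444 and 0.398) were not. Without the 2 libraries r was 0.94 for Otx2 and -0.47 for Sostdc1.

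Among the 8 low libraries Folr1 had r = 0.92 and rho = 0.88 (exact permutation p = 0.00179 and 0.00724, adjusted 0.00859 and 0.013; r = 0.75 without the 2 libraries). For Enpp2 r was 0.92 and rho 0.90 (exact permutation p = 0.0035 and 0.00456, adjusted 0.00918 and 0.0117; r = 0.65). Kcne2, Aqp1 and Slc4a5 were called by both measures, with r of 0.94, 0.88 and 0.80. Clic6 (r = 0.66, rho = 0.69, exact permutation p = 0.0664 and 0.0694, adjusted 0.0747 and 0.0892) and Otx2 (r = 0.39, rho = 0.19, exact permutation p = 0.35 and 0.665, adjusted 0.37 and 0.665) were not called. Kl and Sostdc1 were called by r (0.92 and 0.85) and not by rho (0.69 and 0.31, exact permutation p adjusted 0.0892 and 0.489). The 2 libraries left out were 82Q-3 and 82Q-4, the highest of the 8. Without them r was 0.28 for Kl, 0.34 for Slc4a5 and -0.72 for Sostdc1, so those relations rest on 82Q-3 and 82Q-4. For Aqp1 and Kcne2 r fell to 0.51 and 0.64 without them. The libraries of each cluster come from all 3 groups, and each cluster was treated as 1 set of samples, so the tests ignored group. Among the 8 low libraries those of 82Q, at 24.2 to 269 CPM of Ttr, all lay above WT-4 and the 82Q_M120A libraries, at 8.30 to 20.7. The relations in the low cluster therefore cannot be told apart from a difference between 82Q and the other groups.

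Set against Ttr, Slc4a5 varied least in the high libraries, by a factor of 1.13, and Aqp1 and Otx2 varied by 1.38 and 1.42. Ttr itself ran only from 1509.9 to 2602 CPM there, so even Otx2, with a slope of 0.10 within groups, varied little in this ratio. Per 1000 Ttr counts, the 7 high libraries held 27.5 to 33.2 counts of Kl, 8.18 to 10.3 of Folr1, 8.67 to 9.80 of Slc4a5 and 624 to 763 of Enpp2. Ttr ran more widely in the 8 low libraries, from 8.30 to 269 CPM. The same ratios ran there from 38.5 to 217 for Kl and from 8.88 to 28.5 for Folr1. They ran from 24.2 to 365 for Slc4a5 and from 1508 to 21718 for Enpp2. Sostdc1 varied most among the high libraries, by a factor of 2.50. It stood at 5.54 counts per 1000 Ttr counts in 82Q_M120A-1 (95% exact binomial interval 5.22 to 5.89, counting error only) and at 2.22 to 2.82 in the other 6 high libraries. With 5 to 102 Sostdc1 counts in the low libraries, the ratios there are poorly known, for example 3.81 in WT-4 (1.24 to 8.92).

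None of the 10 genes was called between groups, although their mean levels were lower in both 82Q groups than in WT. In 82Q against WT the background was 18.7% of 16808 tested genes called, 10.1% lower. Ttr had a log2 fold change of -0.75 ± 1.73 (edgeR quasi-likelihood, adjusted p = 0.817), Kl of -0.62 ± 1.27 (0.792), Clic6 of -0.84 ± 1.05 (0.642) and Otx2 of -0.19 ± 0.24 (0.647). The standard errors exceeded the differences for all 10. The values moved with single libraries, Ttr to -1.53 without 82Q-2 and to -0.44 without 82Q-1, and Kl to -1.29 and -0.32. The median over the 10 was -0.63, and 0.01 over all tested genes. The groups overlapped for every member.

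In 82Q_M120A against WT, where 36.4% of tested genes were called and 17.8% were lower, the fitted differences were larger and again none was called. Ttr had a log2 fold change of -2.06 ± 1.79 (adjusted p = 0.401, edgeR quasi-likelihood), Folr1 of -2.18 ± 1.45 (0.268), Enpp2 of -1.58 ± 0.82 (0.153) and Otx2 of -0.50 ± 0.24 (0.123), the smallest adjusted p of the 10. Sostdc1 had the largest adjusted p, with -0.85 ± 1.40 (0.673). The median over the 10 was -1.93, and 0.01 over all tested genes. This count rested on single libraries. Without 82Q_M120A-1, the 1 high library of its group, 9 of 10 members were called lower, against 17.8% of tested genes in that fit, with a log2 fold change of -6.93 for Ttr (edgeR quasi-likelihood, adjusted p = 0.00971). Without WT-4 1 of 10, Otx2, was called lower (-0.65, adjusted p = 0.0318, edgeR quasi-likelihood), against 17.1% of tested genes.

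In 82Q_M120A against 82Q 18.9% of tested genes were called and 8.63% were lower, and none of the 10 was called. Ttr had a log2 fold change of -1.31 ± 1.75 (adjusted p = 0.66, edgeR quasi-likelihood), Slc4a5 of -1.08 ± 0.76 (0.371, the smallest adjusted p) and Sostdc1 of -0.28 ± 1.40 (0.923). Without 82Q_M120A-1, 3 of 10, Ttr, Folr1 and Slc4a5, were called lower, against 8.61% of tested genes. No member reached an unadjusted p under 0.05 by edgeR in any of the 3 comparisons. By DESeq2 0 of 10 were called in each, and 0, 4 and 0 had an unadjusted p under 0.05 in 82Q against WT, 82Q_M120A against WT and 82Q_M120A against 82Q. The 3 comparisons share their groups and are not independent of each other.

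With log2 CPM of Ttr as a covariate, so that levels were compared at equal Ttr, the share of called genes was 20.1% for 82Q set against WT. It was 32.3% when 82Q_M120A was set against WT, and 17.4% when it was set against 82Q. In 82Q against WT the other 9 members ran from -0.68 ± 0.27 for Clic6 (adjusted p = 0.101, edgeR quasi-likelihood) to 0.15 ± 0.13 for Sostdc1 (0.457), and 0 were called. In each comparison with 82Q_M120A 1 of 9 members was called, a share below the background. It was Sostdc1, higher by 1.13 ± 0.16 against WT (adjusted p = 4.33e-05) and by 0.98 ± 0.16 against 82Q (0.000422). When 82Q_M120A-1 was also left out, an alternative chosen after the data were seen, the Sostdc1 difference was 1.13 ± 0.38 against WT (adjusted p = 0.0388) and 0.98 ± 0.34 against 82Q (0.0765, not called). In that fit Kl (1.05 ± 0.20, edgeR quasi-likelihood adjusted p = 0.00186) and Kcne2 (0.98 ± 0.29, 0.0207) were called higher against WT as well, so that 3 of 9 were called higher against WT (11.6% of tested genes) and 2, Kl and Kcne2, against 82Q (6.61%). For Kl the fit with all libraries gave 0.43 ± 0.24 against WT (edgeR quasi-likelihood adjusted p = 0.19). Without 82Q_M120A-1 all remaining 82Q_M120A libraries are low in Ttr, and WT-4 is the one WT library at a like level.

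Other genes of the choroid plexus moved with the members. Of 30 further choroid plexus genes 29 rose with Ttr within groups and 1, Slc29a4, was not called (2.31% of tested genes rose). The median slope was 0.35. Tmem72, a membrane protein gene, had a slope of 0.80 ± 0.03 (adjusted p = 9.67e-12, edgeR quasi-likelihood), the tight junction gene Cldn1 of 0.63 ± 0.03, the gene of coagulation factor V, F5, of 0.73 ± 0.03, and the keratin gene Krt18 of 0.60 ± 0.03. The summed level of these 30 genes ran from 544 to 1153 CPM in WT, from 570 to 1209 in 82Q and from 550 to 984 in 82Q_M120A. Between groups 1 of the 30 rose in 82Q against WT, where 8.63% of tested genes rose and 10.1% fell. In 82Q_M120A against WT 1 rose and 3 fell, where 18.6% rose and 17.8% fell. In 82Q_M120A against 82Q 0 were called, where 18.9% were called. Each of these counts is a share below that of all tested genes. The sulfatase gene Sulf1 was the one that rose, by a log2 fold change of 0.30 (edgeR quasi-likelihood, adjusted p = 0.0382) in 82Q and 0.38 (0.0052) in 82Q_M120A. The 3 that fell were the carbonic anhydrase gene Car12 (-2.74, edgeR quasi-likelihood adjusted p = 0.0321), Calml4 (-1.97, 0.0491) and Otx2os1 (-1.13, 0.0284). Otx2os1 rests on 6 to 32 counts per library.

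The 10 non-members with the smallest p of a rising slope were taken among genes of at least 1 CPM, with predicted models left out. Those outside the list of 30 were Prr32 (0.74 ± 0.03, adjusted p = 1.81e-11, edgeR quasi-likelihood), the glucose transporter gene Slc2a12 (0.22 ± 0.02), the basement membrane collagen gene Col4a4 (0.30 ± 0.02), Mdfic (0.21 ± 0.02) and the transporter gene Abca4 (0.39 ± 0.03). The claudin gene Cldn2, of the list of 30, was the remaining one of the 10 (0.52 ± 0.03). The p orders how surely a slope differed from 0 over the 15 libraries, and not how closely a gene changed by the same factor as Ttr. The falling slopes were slight. The smallest p belonged to Rims1, a presynaptic active zone gene (-0.04 ± 0.01, adjusted p = 8.38e-05), followed by the GABA receptor subunit gene Gabrd, Snrk, Tyro3 and Camkk1, all at -0.03. Of the 503 called genes 88 had a slope over 0.25 and 2 a slope under -0.1.

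Of 19 further genes of ion and water transport into cerebrospinal fluid 5 rose with Ttr, against a background of 2.31%, and 14 were not called. Among them the potassium channel gene Kcnj13 had a slope of 0.49 (adjusted p = 1.12e-06, edgeR quasi-likelihood), and the anion exchanger gene Slc4a2 one of 0.07. In 82Q_M120A against WT 3 of these 19 rose and 8 fell, where 18.6% of tested genes rose and 17.8% fell, among them the myo-inositol transporter gene Slc5a3, whose product is known to assemble with KCNE2-containing channels. Slc5a3 lay between 69.7 and 78.0 CPM in WT, between 65.3 and 79.0 in 82Q and between 41.6 and 52.3 in 82Q_M120A (log2 fold change against WT -0.71, adjusted p = 1.22e-07), with 82Q_M120A-1 the lowest of all libraries. It therefore did not divide the libraries as Ttr did.

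Of 13 genes of thyroid hormone, retinol and folate carriage 2 rose with Ttr and 11 were not called, where 2.31% of tested genes rose. Among those that rose was Slco1c1, an organic anion transporter gene (slope 0.05, edgeR quasi-likelihood adjusted p = 0.000271). Of 10 genes of lysophosphatidic acid receptors, phosphatases and Enpp6, 0 were called for the slope. In 82Q against WT 3 of these 10 rose and 1 fell, where 8.63% of tested genes rose and 10.1% fell. In 82Q_M120A against WT 6 rose and 1 fell, where 18.6% rose and 17.8% fell. The smallest adjusted p belonged to Enpp6, a phosphodiesterase gene of new oligodendrocytes (0.73, adjusted p = 1.69e-05, edgeR quasi-likelihood), and the lysophosphatidic acid receptor gene Lpar5 had a log2 fold change of 1.15 (0.00159). Enpp2 itself was not called in either comparison.

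Markers of other tissues and cells of the region were examined in the same fit. For the slope on Ttr 0 of 16 meningeal and fibroblast genes, 0 of 16 vascular genes, 0 of 16 oligodendrocyte genes and 0 of 9 tested genes of brainstem and cerebellar nuclei were called. With 2.99% of tested genes called, lists of this size would hold few calls or none, so these counts do not show that the tissues stayed apart from Ttr. Their median slopes were 0.04, 0.001, 0.01 and 0.03 in that order, against -0.0003 over all tested genes. Of 14 ependymal genes 3 rose, against 2.31% of tested genes, the cilia genes Tekt1 (0.14, adjusted p = 0.0013, edgeR quasi-likelihood) and Spag16 (0.14) and the gene 1110017D15Rik (0.07). Slopes in this list ran down to -0.08 for Ccdc153, which was not called, and their median was 0.06. The slopes of Tekt1 and Spag16 were of the size of that of Otx2, and the part of ependyma in the result was not tested. The highest summed level was 2.10 times the lowest for the ependymal list, 2.06 times for the meningeal list, 1.29 times for the vascular list and 1.56 times for the oligodendrocyte list, against 23.3 times for the 10 choroid plexus genes. Meningeal sums were 945 to 1824 CPM in WT, 1052 to 1444 in 82Q and 884 to 1423 in 82Q_M120A, and the highest was WT-2. Oligodendrocyte sums were 5617 to 6779 CPM in WT, 6893 to 8339 in 82Q and 7916 to 8739 in 82Q_M120A. WT-4, low in Enpp2, had an oligodendrocyte sum of 5691 CPM, and WT-1, high in Enpp2, one of 5617. Of 5 blood genes the 4 globin genes were listed at 0, and the summed level of the list varied by 9.52 times. Tissue carried along in dissection as a source of the division was not tested, since no file records how much choroid plexus each sample held.

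**Figure D5:**
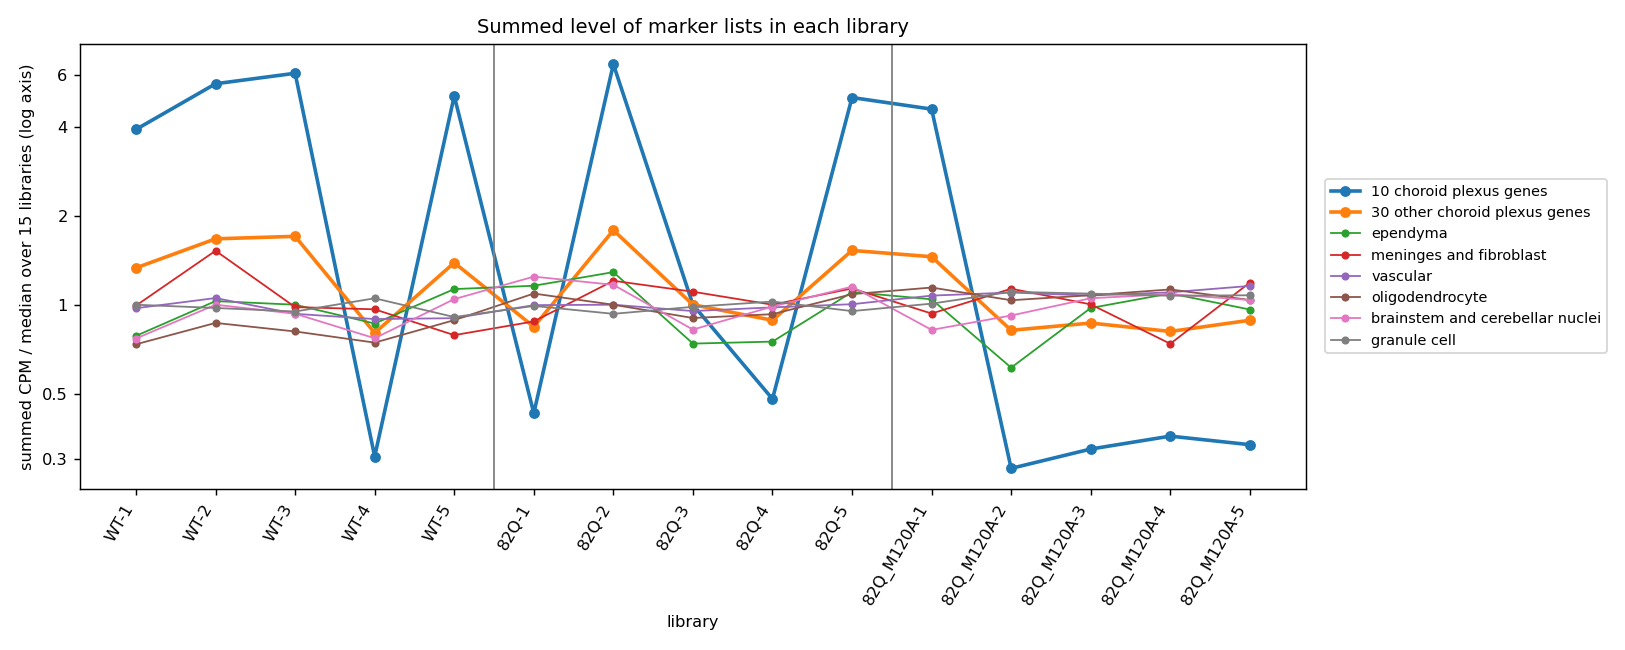
Summed CPM of 8 marker lists in each library divided by the list's median over the 15 libraries, on a log axis, with vertical lines between the groups. The 10 choroid plexus genes swing over a factor of 23.3. The summed level of the 30 further choroid plexus genes varies by a factor of 2.23, against 2.10 for the ependymal and 2.06 for the meningeal list. Sums follow the most abundant genes of a list, such as Trpm3 (mean 211 CPM) of the 30 and Ptgds (1009 CPM) of the meningeal list. The median slope on Ttr within groups was 0.35 for the 30 genes, 0.06 for the ependymal and 0.04 for the meningeal list. The remaining lists shown vary by a factor of 1.62 or less. The Purkinje cell and blood lists, at 3.07 and 9.52, are not shown. The Purkinje cell sum was 10514 to 12034 CPM in WT, against 3943 to 4838 in 82Q and 3922 to 5237 in 82Q_M120A. Its factor is thus mostly a difference of WT from the other groups.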

How the data were processed

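RNA of dissected cerebellum was sequenced in 15 libraries. The deposited table holds raw counts per gene symbol, whole numbers, which the authors made from reads. The submitters' processing notes list, without roles, DESeq2 1.14.1 and R 3.3.3, the aligner HISAT2 2.0.1, CASAVA 1.8, Subread with featureCounts, and build mm10. The sources used here do not give the annotation, strand use or treatment of reads that map to many places. Columns carry a group and no replicate number.

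All 15 libraries were fitted with edgeR 4.0.16 (limma 3.58.1, R 4.3.3): TMM factors, default filterByExpr, robust quasi-likelihood fit, group as factor, two-sided tests, Benjamini-Hochberg adjusted p under 0.05 over all tested genes. The slope fit added log2 CPM of Ttr (prior count 2) centred per group. Standard errors are the absolute log2 value divided by the root of F. Both fits were also run on simulated data. No outcome of those runs is given here, and they are not used to judge the group tests of the members. Positions and exon lengths are from GENCODE M21 (mm10). Intervals cover counting error only.

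The members, lists and tests were chosen with earlier results of these data known. Named genes were the 10 members, the 10 rising and 5 falling slope genes of smallest p, and up to 4 called genes per list. The named lists also include Purkinje and granule cell genes, of which 0 of 12 and 1 of 12 were called for the slope, against 2.99% of tested genes. Genes outside the rule, such as Slc29a4, Anapc15 and 2410124H12Rik, were chosen after their values were seen. Alternatives were DESeq2 1.42.0, RLE or library size scaling, other filters and thresholds, other sets of libraries, and Folr1 or Ttr as covariate. The values of 1 gene of these lists are not reported here.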

Additional observations from a re-analysis of the deposited data

Results flagged for a closer look

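On log2 CPM, 2 libraries stood apart from the other 4 of their group by a wide gap relative to the group's range (Dixon's 95% limit for 5 samples, 0.71). WT-4 was the lowest WT library by this measure for 9 members: Ttr (0.904 of the range), Kl (0.871), Folr1 (0.904), Clic6 (0.793), Aqp1 (0.894), Kcne2 (0.919), Sostdc1 (0.913), Slc4a5 (0.753) and Enpp2 (0.824). 82Q_M120A-1 was the highest of its group for 8 members: Ttr (0.833), Kl (0.837), Clic6 (0.779), Aqp1 (0.765), Kcne2 (0.815), Sostdc1 (0.928), Slc4a5 (0.779) and Enpp2 (0.889). Chance flags about 1 in 20 groups, 30 were examined, and the members are not independent of each other.

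Of the further choroid plexus genes, Steap1, a metalloreductase family gene, had slopes on Ttr that differed between groups: 0.33 ± 0.04 in WT, 0.84 ± 0.05 in 82Q and 0.50 ± 0.03 in 82Q_M120A (edgeR quasi-likelihood test of equal slopes, adjusted p = 0.016). The WT slope rests largely on WT-4 and the 82Q_M120A slope on 82Q_M120A-1. Steap1 averaged only 1.29 CPM over all libraries and 0.48 in 82Q_M120A.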

How the results depend on the processing

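No paired analysis was possible because the columns carry no replicate number. With Ttr as a covariate 1 member was called in 82Q_M120A against WT and 1 against 82Q, and with 82Q_M120A-1 also left out 3 and 2, against 0 and 0. That covariate turned the sign of 14 fitted log2 differences: in 82Q against WT Folr1 (0.019) and Sostdc1 (0.15), in 82Q_M120A against WT Folr1 (0.016), Enpp2 (0.14), Sostdc1 (1.13), Kcne2 (0.27) and Kl (0.43), and in 82Q_M120A against 82Q Enpp2 (0.20), Sostdc1 (0.98), Kcne2 (0.43), Aqp1 (0.094), Clic6 (0.22), Kl (0.51) and Otx2 (0.0095). The cause was not tested. Leaving out 1 library gave 0 to 9 members called in 82Q_M120A against WT, 0 to 3 against 82Q, 0 in 82Q against WT, and a Sostdc1 difference against 82Q of -4.50 to 0.52. For the slope it gave 8 to 9 members and 246 (without WT-4) to 616 (without 82Q-3) genes, against 503. Genes called for the slope were 241 at an adjusted p under 0.01, 145 without WT-4 and 82Q_M120A-1 (the Otx2 adjusted p was then 0.863), 260 in WT alone, 65 in 82Q alone and 39 in 82Q_M120A alone, where fewer samples were fitted. Scaling by RLE or library size, both other filters, and DESeq2 or the 2 groups alone where run, kept every count of calls within 1.5 times. Levels of Kcne2, Folr1 and Sostdc1 in the low libraries rest on as few as 9, 9 and 5 counts.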

Other observations

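These genes were chosen after their values were seen. The prolactin receptor gene Prlr, a choroid plexus gene, stood at 7.91, 16.2, 41.7, 0.251 and 10.1 CPM in the WT libraries in order, 0.252, 13.6, 2.42, 0.599 and 12.7 in 82Q, and 27.3, 0.653, 0.623, 0.785 and 0.604 in 82Q_M120A. WT-3 and 82Q_M120A-1 were thus above every other library, although their Ttr was not set apart from that of the other high libraries. The carbonic anhydrase gene Car12 stood at 36.2, 45.6, 49.6, 9.65 and 37.6 CPM in WT, 7.43, 43.8, 13.8, 10.9 and 37.0 in 82Q, and 18.5, 0.789, 5.15, 0.827 and 0.948 in 82Q_M120A. It fell in 82Q_M120A against WT by a log2 difference of -2.74 (edgeR quasi-likelihood, adjusted p = 0.0321), and each 82Q_M120A library low in Ttr was also lower in Car12 than the lowest WT and 82Q libraries.

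With Ttr as a covariate, 2995 of the 3142 genes called in 82Q against WT over the whole table stayed called, 4813 of 6118 in 82Q_M120A against WT and 2503 of 3175 in 82Q_M120A against 82Q.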
